A study of Homo sapiens with 24 samples.

Results

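Knockdown (KD) of the microRNA miR-125b was added to cells that also carried the manipulation titled OE, and the resulting transcript profiles were set against those of OE cells without it. All these cells were SH-SY5Y, a human neuroblastoma line, treated with retinoic acid (RA) and harvested on day 2. The members were chosen by sample title, 3 arrays titled OE+KD and 3 arrays titled OE, which makes 6 of the 24 Illumina expression arrays of the study. The titles write OE, read here as overexpression, where the source names write DP without explaining it, and for the double condition the source name gives the knockdown as mir125, without the letter b. Further groups of 3 arrays each were used to define sets of probes: KD and scrambled control with RA on day 2, OE and scrambled control without RA on day 2, and the same pair without RA on day 4. All are SH-SY5Y cells. No label used here states the vectors, the delivery, the dose of RA or separate cultures for the replicates, and the growth protocol in the labels describes another experiment. A p-value thus reflects the spread among arrays within groups, which may be technical. In the main fit that spread was pooled over the groups of all 24 arrays, not taken from the OE+KD and OE arrays alone. Neither OE nor KD was checked against the level of the microRNA itself.

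MicroRNAs are short RNAs that guide Argonaute proteins to messenger RNAs carrying sites complementary to the seed at their 5′ end, and a bound message is usually translated less and degraded sooner. miR-125b is abundant in the nervous system and belongs to the family of the lin-4 microRNA of worms. RA, a ligand of nuclear receptors, drives SH-SY5Y cells out of the cell cycle and towards a neuron-like form. Direct targets of a microRNA are thus lowered when it is added and released when it is blocked, while many other transcripts move downstream of them. The question the comparison addresses is which of the changes seen with OE are smaller when the knockdown reagent is present as well.

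The microRNA under study is shown with the other mature human microRNAs of the RefSeq table that share its seed, bases 2 to 8, printed in capitals, since any reagent or site that reads only the seed cannot tell them apart. The table (build GRCh38.p14) holds 3 such names. Mature miR-125b-5p is made from 2 genes, MIR125B1 at chr11:122099809-122099830 on the minus strand and MIR125B2 at chr21:16590253-16590274 on the plus strand, with the same 22 bases from each. The reverse complement of the seed, as it would stand in a target message, is CUCAGGG.
hsa-miR-125b-5p: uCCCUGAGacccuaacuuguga
hsa-miR-125a-5p: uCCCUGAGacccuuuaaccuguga
hsa-miR-4319: uCCCUGAGcaaagccac

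Mean scanner intensity was 617.8, 722.3 and 796.4 on the 3 OE+KD arrays and 825.1, 922.7 and 772.3 on the 3 OE arrays, in replicate order. OE replicate 2 stood apart from the other arrays: its residual SD was 0.225 log2, the highest of the 24, against 0.161 and 0.138 on OE replicates 1 and 3 and 0.0941 to 0.123 on the OE+KD arrays. Replicates correlated across tested probes with a lowest r of 0.9926 in the OE+KD group and 0.9781 in the OE group. Counts and changes of OE+KD against OE are therefore followed by their values without OE replicate 2. All 3 OE arrays lay above the median residual SD of the 24 arrays, 0.0982 log2. A spread pooled over all groups is thus, over the probes as a whole, smaller than that of the OE group. The p-values of OE+KD against OE may therefore be too small. With 3 arrays a group, precision is limited by their number. The tables used here do not pair the probe IDs with genes, so no gene is named, the identity of the cells was not checked against markers, and at most 2 rising and 2 falling probes of each comparison are named. In such bulk RNA, a change in the share of cells of one kind and a change of RNA within each cell cannot be told apart.

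Adding KD to OE moved many transcripts by small amounts, in both directions. Of the 10691 probes tested, 980 were higher in OE+KD than in OE and 902 were lower (limma, adjusted p under 0.05), which is 17.6% called, 9.17% higher and 8.44% lower. The median size of a called change was 0.39 log2, or 1.31-fold, with 0.28 log2 at the 10th percentile and 0.60 at the 90th. At least 1.5-fold, 135 probes rose and 75 fell, and at least 2-fold, 7 rose (0.0655% of those tested) and 1 fell (0.00935%). The 3 arrays of one group lay wholly above or below the 3 of the other at 2818 probes (26.4%), 1383 of them higher (12.9%) and 1435 lower (13.4%). The last probe called had an adjusted p of 0.04999 and a change of -0.44 log2, and the first not called had 0.05027 and -0.26 log2.

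Without OE replicate 2 the count was 962 (9%), with 543 probes higher (5.08%) and 419 lower (3.92%). Of the 1882 probes called with all arrays, 841 were also called in the same direction without that array (44.7%), 480 higher and 361 lower. None was called in the opposite direction. All 1882 kept their sign, but the arrays left had already taken part in choosing these probes. At least 1.5-fold, 78 rose and 26 fell without that array, against 135 and 75 with it, and at least 2-fold, 4 rose and 1 fell. The median size of a called change was 0.40 log2. The 3 OE+KD arrays lay wholly to one side of the remaining 2 OE arrays at 3857 probes (36.1%), 1875 higher and 1982 lower, a condition that fewer arrays meet more easily. With the replicate number as a block, the count without OE replicate 2 was 1594 (14.9%). The count also depended on the arrays that set the spread: it was 104 when only the OE+KD and OE arrays were fitted, 1032 with the 4 RA groups, and 1171 without OE+KD replicate 1. Rises made up 52.1% of the calls, against 22.8% with median scaling and 63.9% in the authors' normalized values, so the balance between rises and falls is relative to the scaling. Dim probes were called less often, at 12% of the lowest of 3 equal groups by mean level over all arrays, 20.2% of the middle and 20.7% of the highest, and without OE replicate 2 at 6.31%, 10.4% and 10.3%.

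The probe with the largest rise was ILMN_5708. Its normalized log2 intensity was 9.86, 10.07 and 10.42 on the OE+KD arrays, against 8.72, 8.73 and 8.85 on the OE arrays. The groups were far apart, with the OE+KD arrays more spread than the OE arrays. The change was 1.35 log2 (SE 0.103, 2.55-fold, limma adjusted p = 1.25e-08) and 1.33 log2 without OE replicate 2 (limma adjusted p = 9.14e-08). Scrambled control arrays with RA stood at 10.66 ± 0.11 (SD, n = 3), so the OE+KD mean of 10.12 ± 0.28 lay 0.54 log2 below them (limma adjusted p = 0.000297). In arrays that share nothing with this comparison, OE without RA changed the probe by -1.76 log2 on day 2 and -1.65 on day 4.

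ILMN_9057 followed, at 11.88, 11.99 and 11.86 in OE+KD arrays, against 10.97, 10.29 and 11.02 in OE arrays. Here OE replicate 2 was the lowest array by far, although OE replicates 1 and 3 were also below every OE+KD array. The change was 1.15 log2 (SE 0.140, 2.22-fold, limma adjusted p = 6.93e-06), or 0.91 log2 without OE replicate 2 (limma adjusted p = 1.20e-05). OE without RA changed it by -1.33 log2 on day 2 and -2.14 on day 4. KD alone also lowered it, by -0.57 log2 against scrambled (limma adjusted p = 0.00485), so that with RA it stood at 11.91 ± 0.07 in OE+KD, 10.76 ± 0.41 in OE, 12.27 ± 0.11 in KD and 12.85 ± 0.11 in scrambled arrays (SD, n = 3 each).

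The largest fall was that of ILMN_6588, the probe that OE raised most without RA on day 2. It read 13.03, 12.83 and 12.74 on the OE+KD arrays and 14.06, 14.04 and 13.77 on the OE arrays. All OE+KD arrays lay below all OE arrays, and both groups lay above the scrambled arrays at 11.19 ± 0.08 (SD, n = 3). The change was -1.09 log2 (SE 0.0862, 2.13-fold lower, limma adjusted p = 1.29e-08), and -1.05 without OE replicate 2 (limma adjusted p = 1.14e-07). OE+KD minus scrambled was still 1.68 log2. KD without OE raised this probe, by 0.43 log2 against scrambled (limma adjusted p = 0.000876).

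ILMN_5930 had the second largest fall and behaved otherwise. It read 7.79, 8.29 and 8.34 on the OE+KD arrays, against 8.53, 9.72 and 9.16 on the OE arrays. The groups did not overlap, but the gap between the highest OE+KD and the lowest OE array was narrow and OE replicate 2 was the highest of all. The change was -0.99 log2 (SE 0.217, limma adjusted p = 0.00312), -0.70 log2 without OE replicate 2 (limma adjusted p = 0.0286), and it was not called when only these 6 arrays were fitted (limma adjusted p = 0.0906). OE itself did not pass the test at this probe without RA, with -0.55 log2 on day 2 (limma adjusted p = 0.0533) and -0.05 on day 4 (limma adjusted p = 0.875).

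**Figure D1:**
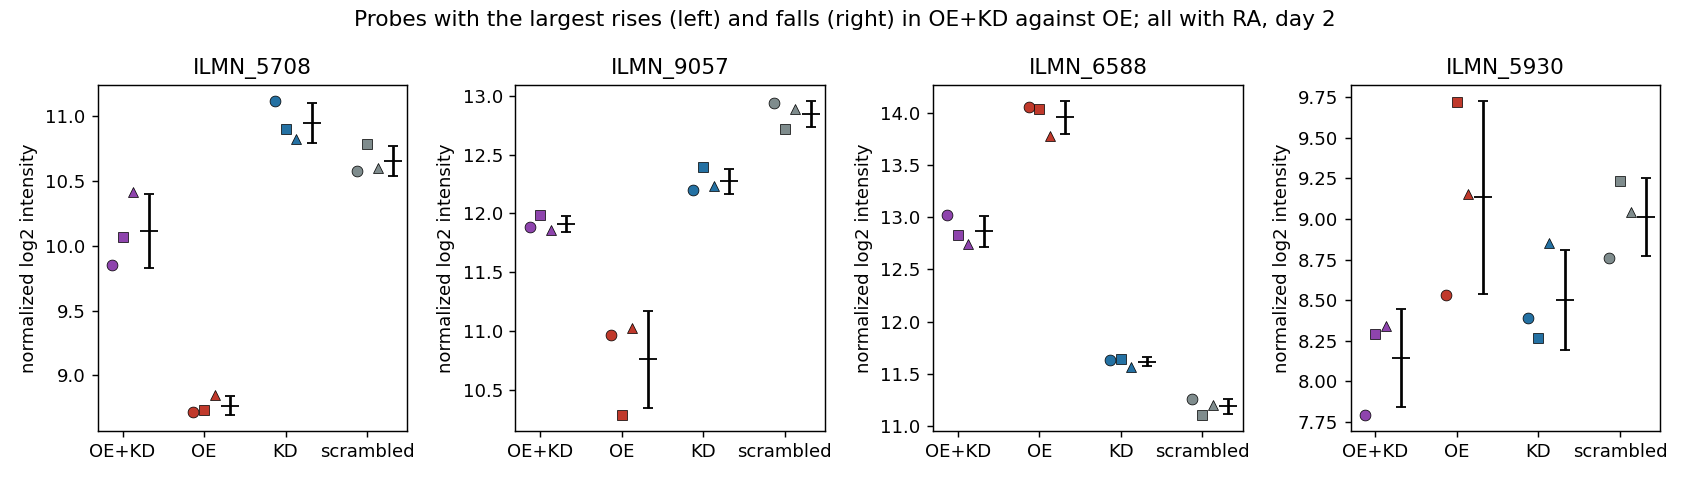
Normalized log2 intensity on the arrays with RA on day 2 of the 2 probes that rose most and the 2 that fell most in OE+KD against OE. Circles, squares and triangles are replicates 1, 2 and 3, and the bar beside each group is the mean ± SD (n = 3); each panel has its own axis. ILMN_5708 and ILMN_9057 are higher in OE+KD than in OE and below scrambled, ILMN_6588 is lower in OE+KD than in OE and above scrambled, and at ILMN_5930 the square, OE replicate 2, is the highest array.

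The 15 probes with the largest rise, by 0.88 to 1.35 log2, were mostly probes that OE lowers. In the arrays without RA, 13 of the 15 were called lower with OE on day 2 and the same number on day 4, none was called higher, and the OE effects had medians of -1.27 log2 (day 2) and -1.43 (day 4). The rest of the 15 were at or near background without RA, so a lowering by OE could not be measured there. Over all probes tested, 15.8% were called lower with OE on day 2 and 25.3% on day 4. All 15 were called without OE replicate 2, with changes of 0.70 to 1.33 log2. RA had raised 9 of the 15 in scrambled cells, where 9.31% of all probes were called higher. KD in scrambled cells raised 1 and lowered 2 of them, with a median of -0.02 log2, where it called 8.61% of all probes higher and 7.7% lower.

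The 15 with the largest fall, by 0.74 to 1.09 log2 in size, rested more on OE replicate 2. Of these, 11 were called without that array, and the smallest change there was -0.31 log2. OE without RA had raised 9 of the 15 on each day (15.6% of all probes on day 2 and 26.2% on day 4) and lowered none, with median effects of 0.51 and 0.74 log2. RA raised none of them in scrambled cells and lowered 2, where it called 9.31% of all probes higher and 10.1% lower. The ranking used the change itself, so only the values from other arrays describe something it did not use.

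The OE effect measured without RA ordered the changes seen when KD was added with RA. Probes that OE lowered by more than 1 log2 on day 2 without RA (95 probes) had a median change of 0.40 log2 in OE+KD against OE, with 62 called higher and none lower. The median was 0.25 log2 for OE effects between -1 and -0.5 (560 probes) and 0.11 between -0.5 and -0.25 (1141 probes). It was 0.03 for the 3341 probes just below 0 and -0.03 for the 3721 just above. For the raised probes it was -0.08 between 0.25 and 0.5 (1327 probes), -0.18 between 0.5 and 1 (453 probes) and -0.34 for a rise of 1 log2 or more (53 probes, with 29 called lower and none higher). Without OE replicate 2 the medians of the outermost bins were 0.44 and -0.29 log2, and the order of all 8 bins was the same. With the day 4 OE effect as the axis, the medians of the outermost bins were 0.24 log2 (221 probes) and -0.27 (150 probes), and 0.23 and -0.22 without OE replicate 2. Across the 10691 probes, which are not independent replicates, the slope of the change on the day 2 OE effect was -0.31 log2 per log2, and -0.30 without OE replicate 2.

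**Figure D2:**
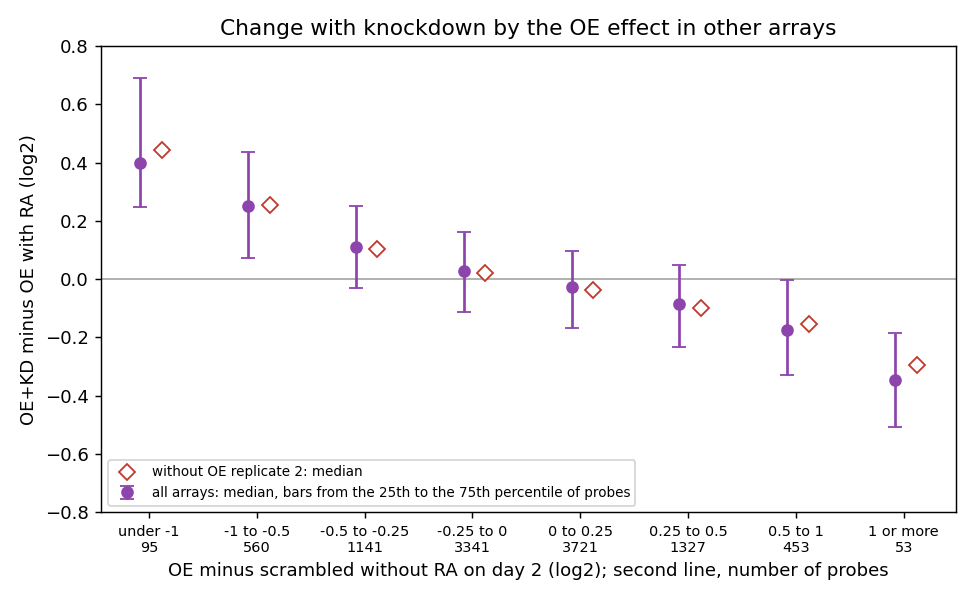
Median change of OE+KD minus OE with RA (log2) for probes grouped by the effect of OE without RA on day 2 (log2; the number of probes stands under each bin). Filled circles with bars are the median and the 25th to 75th percentile of probes with all arrays, and open diamonds are medians without OE replicate 2. The medians step down from 0.40 in the 95 probes lowered most to -0.34 in the 53 raised most.

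Probes called for OE in the same direction on both days without RA, 1226 raised and 1261 lowered, were followed array by array. The mean level of the raised set was 9.62, 9.62 and 9.62 log2 on the OE+KD arrays, against 9.76, 9.78 and 9.76 on the OE arrays. It was 9.49 ± 0.01 in KD and 9.25 ± 0.002 in scrambled arrays (SD, n = 3 each). For the lowered set it was 9.54, 9.54 and 9.54 on the OE+KD arrays and 9.36, 9.31 and 9.35 on the OE arrays, with 9.77 ± 0.02 in KD and 9.89 ± 0.007 in scrambled arrays. OE+KD thus lay between OE and scrambled for both sets, with no overlap of arrays between groups. KD without OE also lay between them, on the scrambled side of OE+KD, so KD alone shifted both sets in the direction of OE. The 4376 probes called for OE on neither day averaged 9.43 ± 0.005 in OE+KD and 9.44 ± 0.003 in OE arrays.

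In the comparison of OE+KD with OE, 297 of the raised set were called lower and 16 higher, and 468 of the lowered set were called higher and 20 lower, or 37.1% against 9.17% of all probes. Without OE replicate 2 the counts were 179 lower and 9 higher for the raised set and 336 higher and 9 lower for the lowered set. The median change was -0.14 log2 for the raised set and 0.19 for the lowered set, and -0.13 and 0.18 without OE replicate 2. In every one of the 9 pairings of an OE+KD array with an OE array the median was below 0 for the raised set (-0.16 to -0.13) and above 0 for the lowered set (0.16 to 0.24). With median scaling 206 of its lowered set were called higher, and the set medians were -0.24 and 0.12 log2 where the median of all probes was -0.10. Against scrambled cells with RA, in comparisons that share these arrays, the raised set had medians of 0.32 log2 in OE+KD and 0.45 in OE, and the lowered set -0.33 in OE+KD and -0.51 in OE. The OE medians were 0.45 and -0.49 without OE replicate 2. Over all probes, 14.1% were called higher and 15% lower in OE+KD against scrambled, and 19.8% higher and 19.9% lower in OE against scrambled (18.3% and 17.4% without OE replicate 2).

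**Figure D3:**
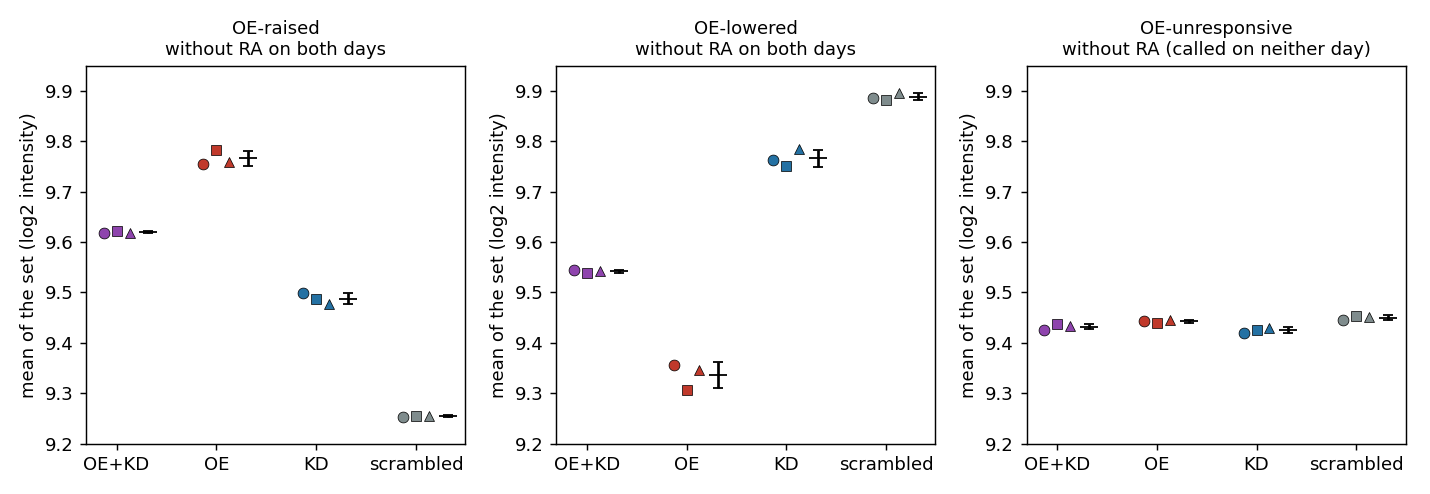
Mean normalized log2 intensity of 3 sets of probes on each array with RA on day 2. The sets are probes raised by OE without RA on both days (1226), lowered on both days (1261) and called on neither day (4376); symbols are replicates 1 (circle), 2 (square) and 3 (triangle), with mean ± SD (n = 3) beside them. OE+KD arrays and KD arrays both stand between OE and scrambled arrays in the first 2 panels, and all arrays lie from 9.42 to 9.45 in the last.

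The calls were concentrated in these sets without being limited to them. The lowered set, 11.8% of the probes tested, held 47.8% of all rises, and the raised set, 11.5% of the probes, held 32.9% of all falls. Probes called for OE on neither day made up 40.9% of those tested and held 235 of the 980 rises and 298 of the 902 falls. Of this class, 78 were called higher and 104 lower without OE replicate 2. Probes that OE changed on 1 day had smaller medians than the sets of both days. The median change was -0.08 log2 among 1555 probes raised on day 4 alone and 0.07 among 1401 lowered on day 4 alone. It was -0.05 among 398 raised on day 2 alone and 0.08 among 410 lowered on day 2 alone. These medians were, without OE replicate 2, -0.05 and 0.03 for day 4 alone and -0.08 and 0.12 for day 2 alone.

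How a probe responded to KD in scrambled cells, again in arrays outside the comparison, divided the OE sets further. KD called 8.61% of all probes higher there and 7.7% lower. Probes lowered by OE and raised by KD in scrambled cells, the reciprocal pattern, numbered 60. When KD was added to OE, 38 of them were called higher (63.3%) and none lower, with a median of 0.36 log2, and 28 were called without OE replicate 2. Their median against the scrambled arrays, which also took part in choosing the class, was 0.01 log2 in OE+KD and -0.34 in OE (-0.31 without OE replicate 2). The mirror class, raised by OE and lowered by KD, held 25 probes, of which 20 were called lower (80%) and none higher, with a median of -0.37 log2, and 14 without OE replicate 2.

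Most OE-responsive probes did not have that reciprocal pattern. Where KD in scrambled cells was called, it mostly went the same way as OE. Of the 1261 probes lowered by OE, KD lowered 271 and raised 60. Of the 1226 probes raised by OE, KD raised 422 and lowered 25. Of the 1261 probes lowered by OE, 930 were not called for KD in scrambled cells. In OE+KD 377 of these were called higher (40.5%) and 3 lower, with a median of 0.22 log2. The 271 that KD lowered as well changed least, with 53 called higher, 17 lower and a median of 0.06 log2. Of the raised set, 779 were not called for KD and had a median of -0.15 log2, with 200 called lower and 3 higher. The 422 that KD raised as well had a median of -0.09, with 77 called lower and 13 higher. With that OE array left out, the lowered classes had 272 higher and 1 lower where KD was not called and 36 higher and 8 lower where KD also lowered them. The raised classes had 116 lower and 1 higher where KD was not called and 49 lower and 8 higher where KD also raised them. The medians of these 4 classes were then 0.20, 0.05, -0.15 and -0.09 log2.

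Some probes followed KD where OE had no called effect without RA. Of the 176 probes raised by KD in scrambled cells and called for OE on neither day, 40 were called higher in OE+KD than in OE (22.7%) and none lower, with a median of 0.16 log2 against 0.39 for KD in scrambled cells. Of the 246 lowered by KD, 62 were called lower (25.2%) and 7 higher, with a median of -0.16 log2 against -0.37. Without OE replicate 2 these classes had 22 higher and none lower, and 28 lower and 3 higher. With RA, OE minus scrambled had medians of 0.14 and -0.11 log2 in these classes (0.14 and -0.14 without OE replicate 2). That comparison shares the scrambled arrays that took part in choosing the classes. Across the 4376 probes called for OE on neither day, the effects of KD with and without OE correlated at r = 0.360, and over all 10691 probes r was 0.144 (0.371 and 0.15 without OE replicate 2). These describe probes, which are not independent, and the effects come from different arrays of one normalization.

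**Figure D4:**
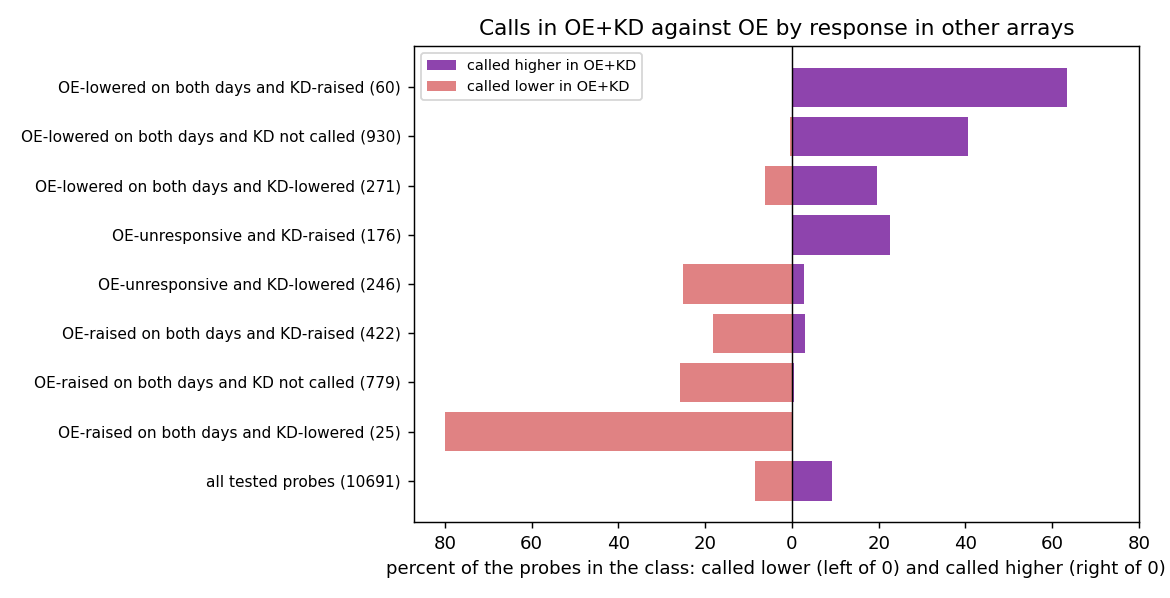
Percent of probes called higher (right of 0) and lower (left of 0) in OE+KD against OE, by class of response in other arrays: to OE without RA on both days or neither, and to KD in scrambled cells with RA. Numbers of probes stand in brackets. The reciprocal classes have the longest bars, 63.3% higher for the 60 probes lowered by OE and raised by KD and 80% lower for the 25 with the opposite pattern, against 9.17% higher and 8.44% lower among all tested probes.

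Whether KD acted alike with and without OE was tested directly as the difference of the KD effects, OE+KD minus OE less KD minus scrambled. It was called at 1420 probes (13.3%), 685 positive (6.41%) and 735 negative (6.87%). Without OE replicate 2 the counts were 657 positive and 700 negative, with only the 4 RA groups fitted the total was 776, and with median scaling it was 891, of which 33.7% were positive, against 48.2% with quantile normalization. At 152 of the 1420 probes KD was called in both backgrounds with opposite directions and at 28 with the same direction. At 605 it was called only in scrambled cells, at 497 only beside OE and at 138 in neither. The 1357 probes called without OE replicate 2 divided into 111 with opposite directions, 24 with the same direction, 754 called only in scrambled cells, 308 only beside OE and 160 in neither. Choosing probes by the difference favours opposite directions. Among all tested probes, KD was called higher in both backgrounds at 134 and lower in both at 152 (88 and 84 without OE replicate 2). It was called higher beside OE and lower in scrambled cells at 66, and the reverse at 86 (42 and 53 without OE replicate 2). The OE sets chosen without RA, in other arrays, split by the sign of the difference of the KD effects. Of the 1226 raised probes 480 had a negative difference and 2 a positive one, and of the 1261 lowered probes 436 had a positive and 8 a negative one. Of the 4376 unresponsive probes 94 were positive and 84 negative. With OE replicate 2 left out, the raised probes had 465 negative and 1 positive, the lowered 425 positive and 7 negative, and the unresponsive 91 positive and 68 negative.

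The largest positive difference was at ILMN_23980. It read 11.43, 11.21 and 11.27 log2 in OE+KD arrays and 10.29, 9.96 and 10.28 in OE arrays, while the other pair read 11.34, 11.58 and 11.20 in KD arrays and 12.30, 11.93 and 12.04 in scrambled arrays. KD thus raised it beside OE and lowered it without OE. The difference was 1.85 log2 (SE 0.165, limma adjusted p = 3.25e-08), and 1.74 without OE replicate 2. Without background correction it was 1.92 log2 and was not called (limma adjusted p = 0.312). In scrambled cells its scanner intensity was 3821.4, 3753.7 and 4667.9 with RA, against 7.8, -1.1 and 7.3 without RA on day 2. All 12 arrays without RA lay between -6.6 and 14.2, at background, so the size of its rise with RA and its response to OE without RA could not be measured.

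At ILMN_16738 the difference was 1.82 log2 (SE 0.157, limma adjusted p = 2.14e-08), and 1.81 without OE replicate 2. The probe read 9.09, 9.10 and 9.12 in OE+KD arrays, 8.42, 8.40 and 8.43 in OE arrays, 9.06, 9.11 and 9.34 in KD arrays and 10.24, 10.29 and 10.35 in scrambled arrays. OE+KD and KD arrays overlapped, with OE below and scrambled above both.

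At the largest negative differences the group means stood the other way round in that OE was highest and scrambled lowest. ILMN_12713 read 13.13, 13.18 and 13.15 in OE+KD arrays and 13.50, 13.40 and 13.63 in OE arrays, against 13.25, 13.31 and 13.48 in KD arrays and 11.48, 11.62 and 11.54 in scrambled arrays. KD raised it by 1.80 log2 in scrambled cells and lowered it by a much smaller -0.35 log2 beside OE (limma adjusted p = 0.00417), a difference of -2.15 log2 (SE 0.114, limma adjusted p = 3.31e-12), and -2.21 without OE replicate 2. At ILMN_28633 the difference was -1.96 log2 (SE 0.170, limma adjusted p = 2.21e-08), and -1.77 without OE replicate 2, with 9.97 ± 0.03 in OE+KD, 10.43 ± 0.37 in OE, 10.14 ± 0.24 in KD and 8.63 ± 0.05 in scrambled arrays (SD, n = 3 each). Its change in OE+KD against OE was -0.45 log2 and was not called without OE replicate 2 (-0.26 log2, limma adjusted p = 0.110). At these 4 probes the OE+KD and KD means lay within 0.19 log2 of each other, the largest gap being -0.19 at ILMN_12713 (limma adjusted p = 0.161). Such closeness was not general: among the probes ranked next by the difference, in either direction, that gap ran from -0.89 to 0.38 log2.

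**Figure D5:**
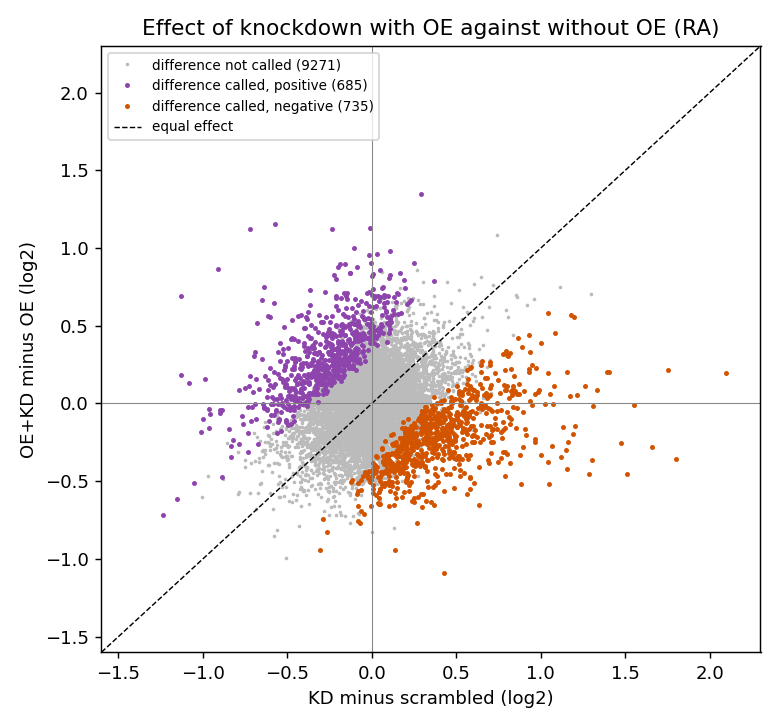
Effect of KD beside OE (OE+KD minus OE, log2, vertical) against the effect of KD in scrambled cells (KD minus scrambled, log2, horizontal), 1 point per tested probe, all with RA on day 2. Purple and orange points are probes whose difference of effects was called positive (685) or negative (735), and the dashed line marks equal effects. The 40 probes that KD raised by 1 log2 or more in scrambled cells, at the right, have a median of -0.004 on the vertical axis.

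Probes responsive to RA shifted weakly and in the direction of their RA response. In scrambled cells RA raised 995 probes (9.31%) and lowered 1078 (10.1%). In OE+KD against OE, 142 of the raised probes were called higher (14.3%) and 66 lower (6.63%), with a median of 0.05 log2. Of the lowered probes, 89 were called higher (8.26%) and 178 lower (16.5%), with a median of -0.05. Among all tested probes, 9.17% were called higher and 8.44% lower (5.08% and 3.92% without OE replicate 2). When OE replicate 2 was left out, the raised probes had 88 higher, 39 lower and a median of 0.02 log2, and the lowered probes 63 higher, 105 lower and a median of -0.03. Among the 89 probes that RA raised at least 2-fold, 27 were called higher (30.3%) and 5 lower, with a median of 0.08 log2, and 19 and 3 without OE replicate 2 (median 0.06). Among the 57 lowered at least 2-fold, 15 were called lower and 5 higher, with a median of -0.07 log2, and 11 and 4 without OE replicate 2 (median -0.04). The size of this shift went with OE replicate 2: for the raised probes the medians were 0.08 to 0.11 log2 in the 3 pairings with that array and -0.002 to 0.05 in the other 6. With median scaling the median of the raised set was -0.04 log2, where the median of all probes was -0.10. Its sign is thus relative to the scaling, while it lay above the median of all probes under both. Where a probe responded to both RA and OE, the median had the sign opposite to the OE effect. The 133 probes raised by both had a median of -0.13 log2 with 33 called lower and 5 higher. The 195 raised by OE and lowered by RA had -0.19 with 71 lower and 3 higher. The 171 lowered by OE and raised by RA had 0.21 with 67 higher and 3 lower, and the 189 lowered by both had 0.09 with 48 higher and 10 lower. The medians of these 4 classes without OE replicate 2 were -0.14, -0.15, 0.18 and 0.09 log2. The calls were then 20 lower and 1 higher, 47 lower and 2 higher, 50 higher and 1 lower, and 38 higher and 5 lower, in the same order of classes.

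Probes that changed with time in scrambled cultures without RA also shifted. Of the 619 that were higher on day 4 than on day 2 (5.79% of all), 111 were called higher in OE+KD than in OE (17.9%) and 38 lower (6.14%), with a median of 0.06 log2. Of the 696 that were lower on day 4 (6.51%), 62 were called higher (8.91%) and 102 lower (14.7%), with a median of -0.03. Among all tested probes, 9.17% were called higher and 8.44% lower (5.08% and 3.92% without OE replicate 2). The first set had, without OE replicate 2, 60 higher, 23 lower and a median of 0.04 log2. The second had 49 higher and 59 lower, close to an even split, and a median of -0.03. The part of culture time in these values was not tested.

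The authors' deposited table of log2 fold changes has a column for OE & KD whose header names scrambled cells without RA as the denominator. Its values did not follow that header. Over 20589 probes they correlated with OE+KD minus scrambled with RA, computed from the authors' normalized values, at r = 0.967 with a largest deviation of 0.62 log2, and with OE+KD minus scrambled without RA at r = 0.561. At ILMN_28662 the authors' deposited table gives -0.80 log2, and the authors' normalized values give -0.78 against scrambled cells with RA. Scrambled cells without RA were near background at this probe, with scanner intensities of 7.2, -2 and 32.6, against 7990.7, 8147.2 and 9517.7 in OE+KD cells, so OE+KD lay far above them, and no fold is given. Taken as sharing the RA-treated control, the OE & KD column minus the OE column of the authors' deposited table gives 1.47 log2 at ILMN_5708, 1.41 at ILMN_9057, -1.06 at ILMN_6588 and -1.29 at ILMN_5930. That difference had the same sign as the change reported here at all 1882 called probes, but it comes from the arrays that chose them.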

How the data were processed

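The authors' deposited scanner values are linear intensity, 1 value for each of 20589 probes on each array, and 14.3% to 17.6% of an array's values are negative, as after a background subtraction. No header or label names the scanner software or the array version. The intensity values that the authors normalized and deposited served as an alternative, and the authors' fold-change table is in log2, per the file headers. Per the labels' protocols, Trizol and RNeasy served for extraction and the target was biotin-labelled.

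In limma 3.58.1 (R 4.3.3), normexp correction with an offset of 50 was followed by quantile normalization and log2. This offset shrinks the changes of dim probes. Probes above the median of their array (percentile 50) on all 3 arrays of at least 1 group were tested, 10691 or 51.9%. One linear model over the 24 arrays estimated 8 group means (lmFit and eBayes, 16 residual degrees of freedom), and p-values were adjusted by Benjamini-Hochberg over all tested probes, with calls at 0.05. The procedure was tested on simulated data with independent noise of equal spread on every array. That setting could not show how it performs with an array like OE replicate 2. Figures used Python 3.11.15 and matplotlib 3.10.9.

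Replicate numbers come from the titles. Same-numbered OE+KD and OE arrays deviated together weakly (r of 0.326, 0.132 and 0.108 across probes). This correlation was not computed for arrays of different number, so pairing by number was not established. The main fit did not use the numbers. No 2 arrays held identical values.

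The members, sets and rules were chosen with earlier results of these data known. The rule for naming took, among called probes whose arrays did not overlap, the 15 that rose most and the 15 that fell most, and 5 in each direction for the difference of KD effects, of which the first 2 are printed. ILMN_28662 was named after its values were seen. Gene lists and cell type markers were not run, since no table used here pairs probes with genes. Sets are described by counts and medians, without a test.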

Additional observations from a re-analysis of the deposited data

Results flagged for a closer look

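The effect of KD differed between cells with OE and scrambled cells, both with RA, at 1420 of the 10691 probes by the test of the difference itself (limma, adjusted p under 0.05). Groups of 3 arrays are too small for a test of single outlying arrays, so none was run, and OE replicate 2 is described by its residual SD of 0.225 log2.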

How the results depend on the processing

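The count of probes called for OE+KD against OE was 1882 and lay between 1333 and 2719 with other background correction, scaling, filters, array weights or the replicate block (2719). It was 104 with only the groups of the comparison fitted and 1032 with only the 4 groups with RA, and between 962 and 2674 when any 1 array of the comparison was left out. The lowest value came without OE replicate 2 and the highest without OE replicate 1. The difference of the KD effects was called at 1420 probes, at 891 with median scaling, at 776 with only the 4 RA groups, at 2044 with the replicate block, and at 1053 to 1834 when 1 array was left out.

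When the sets were drawn anew under each setting, the median change of probes raised and lowered by OE without RA was -0.17 and 0.24 log2 without background correction, -0.24 and 0.12 with median scaling, -0.16 and 0.26 in the authors' normalized values and -0.12 and 0.15 with array weights. With the replicate block and without OE replicate 2, a setting chosen after seeing the data, they were -0.12 and 0.16. Leaving out 1 array gave -0.14 to -0.12 and 0.17 to 0.20. No median of these 2 sets changed sign under any setting run. With median scaling the median of probes raised by KD in scrambled cells was -0.07 log2 in place of 0.03. The median of all probes was then -0.10 log2 in place of 0.002. The replicate block changed the call of none of the 8 named probes. ILMN_5930 lost its call when only the 6 arrays were fitted (limma adjusted p = 0.0906; 0.000134 to 0.0906 over its 16 alternatives), and ILMN_23980 lost the call of its difference without background correction.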
